A study of Mus musculus with 18 samples.

Results

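The genes described are 10 genes through which principal cells of the kidney collecting duct move water and sodium: Aqp2, Aqp3, Aqp4, Scnn1a, Scnn1b, Scnn1g, Avpr2, Hsd11b2, Nr3c2 and Fxyd4. They are described as a set because of their known function. All 10 were found among the 24062 gene symbols of the deposited expression table, and all 10 were among the 14604 genes that reached at least 1 CPM (reads of a gene scaled by the authors to the reads of its library) in at least 3 libraries.

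The 18 libraries, 3 in each of 6 groups, hold total RNA from cortex of C57Bl/6 mouse kidneys. Klf6fl/fl mice (fl/fl) carry a floxed Klf6 gene, whose product is a Krüppel-like transcription factor, and Klf6PTKO mice are those labelled as lacking it in the proximal tubule. Each genotype received the vehicle DMSO, or aristolochic acid I (AAI), a plant compound known to injure the proximal tubule, for 3 weeks (3-week libraries). A further group of each genotype received AAI for 3 weeks and was then left for 3 weeks of remodeling (6-week libraries). The floxed alleles are common to both genotypes as named. The promoter behind the proximal tubule deletion, the dose, the age of the mice and the week at which the DMSO kidneys were taken are not given in the sources used here. One DMSO group per genotype served as the control at both times, so the 3-week and 6-week comparisons share control libraries. No label says that the libraries of a group came from separate animals, and p-values then measure only the spread between these libraries.

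Reads per library ran from 11722625 to 27213219. Klf6 was at 39.2 to 42.3 CPM in fl/fl and 40.2 to 56.7 CPM in PTKO libraries under DMSO, and it did not pass the test between genotypes under any treatment (limma adjusted p = 1 under DMSO, 0.904 at 3 weeks and 0.576 at 6 weeks). Cortex holds many cell types, so this level does not check a deletion in 1 segment, and the libraries are called "labelled PTKO" below. Proximal tubule markers of cortex were high under DMSO: Slc34a1, the phosphate transporter of the early segments, averaged 8537 ± 625 CPM (SD, n = 3) in fl/fl. Some libraries stood apart. Slc12a1, the sodium-potassium-chloride transporter of the thick ascending limb, was highest in 6-week fl/fl replicate 1 (1689.7 CPM) and 6-week PTKO replicate 3 (3344 CPM). Slc14a2, a urea transporter of the inner medulla, was also highest in those libraries, at 137 and 211 CPM. Adipoq, a fat cell hormone, was at 35.2 CPM in 6-week PTKO replicate 2 and 6.78 CPM in DMSO PTKO replicate 2, against 0 to 0.254 CPM in the other libraries.

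Principal cells line the connecting tubule and collecting duct beside the acid-secreting intercalated cells. Vasopressin binds its V2 receptor (Avpr2) on their basolateral side and, through cyclic AMP, brings aquaporin 2 (Aqp2) to the luminal membrane. Water then leaves the cell through the basolateral aquaporins 3 and 4. Sodium enters through the epithelial sodium channel ENaC, built of alpha, beta and gamma subunits (Scnn1a, Scnn1b, Scnn1g), and is pumped out by the sodium pump, which the FXYD protein CHIF (Fxyd4) modulates. Aldosterone acts through the mineralocorticoid receptor (Nr3c2), and 11-beta-hydroxysteroid dehydrogenase 2 (Hsd11b2) shields that receptor by inactivating glucocorticoids.

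The 10 genes are protein coding in GENCODE M21 on mm10. Scnn1g (chr7:121734479-121768475) and Scnn1b (chr7:121865038-121918514) lie on the plus strand of chromosome 7. Aqp2 lies at chr15:99579055-99584547 on the plus strand, Aqp3 at chr4:41092722-41098183 on the minus strand, Scnn1a at chr6:125320659-125344943 on the plus strand and Fxyd4 at chr6:117933559-117937692 on the minus strand. Hsd11b2 (chr8:105518755-105523988) and Nr3c2 (chr8:76899442-77245012) are on the plus strand, as is Avpr2 at chrX:73892102-73895502. The annotation places Cog7 opposite part of Scnn1b, L1cam and Arhgap4 opposite part of Avpr2, and the antisense gene AC133525.2 opposite part of Aqp4. The library kit keeps the strand, but whether the counting used it is not given in the sources used here, so reads of these overlapping genes may have been shared.

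RefSeq promoter windows (GRCm38.p6) were found for 7 of the 10 genes, and the 250 bases before the start are shown for the water channel pair and the ENaC pair whose levels are compared below. They are printed 5′ to 3′ on the strand of the gene, with matches to the motifs searched in capitals. The windows are chr15:99578806-99579055 (plus) for Aqp2, whose last base is the first exonic base in GENCODE, chr4:41098184-41098433 (minus) for Aqp3, chr7:121864788-121865037 (plus) for Scnn1b and chr7:121734229-121734478 (plus) for Scnn1g.
Aqp2: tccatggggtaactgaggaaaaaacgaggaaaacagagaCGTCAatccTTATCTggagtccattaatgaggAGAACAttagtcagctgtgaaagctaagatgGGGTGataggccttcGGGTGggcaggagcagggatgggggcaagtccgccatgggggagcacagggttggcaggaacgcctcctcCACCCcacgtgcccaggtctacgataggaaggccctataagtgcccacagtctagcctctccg
Aqp3: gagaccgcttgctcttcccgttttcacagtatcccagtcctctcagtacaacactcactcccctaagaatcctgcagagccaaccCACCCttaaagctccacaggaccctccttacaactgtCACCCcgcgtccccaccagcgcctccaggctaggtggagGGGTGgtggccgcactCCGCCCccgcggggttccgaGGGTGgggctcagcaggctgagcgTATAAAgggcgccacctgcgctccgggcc
Scnn1b: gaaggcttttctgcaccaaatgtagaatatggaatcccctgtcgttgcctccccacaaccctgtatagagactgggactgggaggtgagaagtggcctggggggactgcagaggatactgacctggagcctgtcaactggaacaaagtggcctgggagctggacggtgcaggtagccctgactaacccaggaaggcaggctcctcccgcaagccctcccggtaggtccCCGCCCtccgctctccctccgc
Scnn1g: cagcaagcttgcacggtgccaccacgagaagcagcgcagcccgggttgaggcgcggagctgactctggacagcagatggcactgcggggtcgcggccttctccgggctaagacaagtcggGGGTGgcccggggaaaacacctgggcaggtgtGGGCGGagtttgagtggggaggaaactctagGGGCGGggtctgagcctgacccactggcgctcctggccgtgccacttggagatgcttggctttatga
The motifs, searched on both strands, were TATAAA (the core promoter box), TGACG (the core of the cyclic AMP response element), TGTTCT (a steroid receptor element), AGATAA (a site of GATA factors), GGGCGG (the GC box) and CACCC (the kind of sequence that Krüppel-like factors are known to bind). The Aqp2 window held the cyclic AMP, steroid receptor and GATA sequences, all within the bases from -211 to -174 before the start, and CACCC. Among 32851 windows of the same length, the cyclic AMP core was found in 17.8%, the steroid receptor element in 16.1% and the GATA site in 9.99%. The Aqp3 window held the core promoter box at -29 to -24, a sequence found in 12.4% of windows. The GC box was found in 5 of the 7 windows, against 32.7% of all windows, and CACCC also in 5 of the 7, against 52%. The 5 windows with the GC box had a GC content of 58% to 68.4%, against a median of 52.4% over all windows. The Aqp2 and Avpr2 windows, without that box, were at 55.6% and 49.2%. The part of base composition in these counts was not tested. In the Scnn1b window the only match was the GC box, and the Scnn1g window held the GC box and CACCC. These matches are descriptions of sequence and say nothing of binding.

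In fl/fl mice at 3 weeks of AAI, the ENaC beta subunit, Hsd11b2 and Fxyd4 rose and the basolateral aquaporins Aqp3 and Aqp4 fell, while the other 5 genes did not pass the test. At 6 weeks, 6 genes were higher in fl/fl and Aqp4 was lower. In libraries labelled PTKO, 5 genes rose at 3 weeks and 8 at 6 weeks, and none of the 10 fell. Tests were made with limma on log2(CPM + 1), and a call is a Benjamini-Hochberg adjusted p under 0.05 over all genes tested. AAI moved most of the transcriptome. In fl/fl, 76.1% of genes tested were called at 3 weeks (58% higher, 18.2% lower) and 73.7% at 6 weeks (59.8% higher, 13.9% lower). In libraries labelled PTKO, 71.1% were called at 3 weeks (57.2% higher, 13.9% lower) and 65.1% at 6 weeks (53.7% higher, 11.4% lower). The members' counts of 5, 7, 5 and 8 of 10 in these comparisons are near those shares and are no result about the members as a set. The median log2 fold change of the members was 0.22 and 0.64 in fl/fl at 3 and 6 weeks and 0.61 and 1.01 in libraries labelled PTKO, beside medians over all genes of 0.45, 0.45, 0.42 and 0.36. Between AAI and DMSO the libraries did not overlap for 6 of 10 members in fl/fl at 3 weeks (80.7% of all genes tested), 8 at 6 weeks (78.8%), 5 in PTKO at 3 weeks (74.9%) and 8 at 6 weeks (68.3%).

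The median over all genes was above 0 on CPM, so the scaling bears on direction. With median-of-ratios scaling that median was 0.03, 0.02, 0.01 and 0.01 in the same order, and the calls over all genes were nearly even. They came to 36.7% higher and 34.2% lower in fl/fl at 3 weeks, 34.1% and 32.5% at 6 weeks, 32.9% and 31.3% in PTKO at 3 weeks, and 28.7% and 28.9% at 6 weeks (70.9%, 66.6%, 64.2% and 57.6% in either direction). Quantile normalization called 70.5%, 64.4%, 62.9% and 51.8% of all genes in either direction, edgeR 70.9%, 65.9%, 64.5% and 57.4%, and DESeq2 71.3%, 66.3%, 65.4% and 59.4%. On the median-of-ratios scale 3 members were higher and 4 lower in fl/fl at 3 weeks, and 3 higher and 2 lower at 6 weeks. Libraries labelled PTKO then had 3 members higher and 1 lower at 3 weeks, and 6 higher and none lower at 6 weeks. Quantile normalization gave 2 higher and 3 lower, 2 and 1, 3 and 0, and 6 and 0 in the same order, and the counts of edgeR and DESeq2 equalled those of median-of-ratios scaling except for 7 higher with DESeq2 in PTKO at 6 weeks. Scnn1b and Hsd11b2 were called higher in all 4 comparisons, and Aqp3 and Aqp4 lower in fl/fl at 3 weeks, under each scaling and tool run (CPM, median of ratios, quantile, edgeR, DESeq2). The libraries are bulk tissue, in which a change in the number of principal cells and a change in RNA per cell cannot be told apart.

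**Figure D1:**
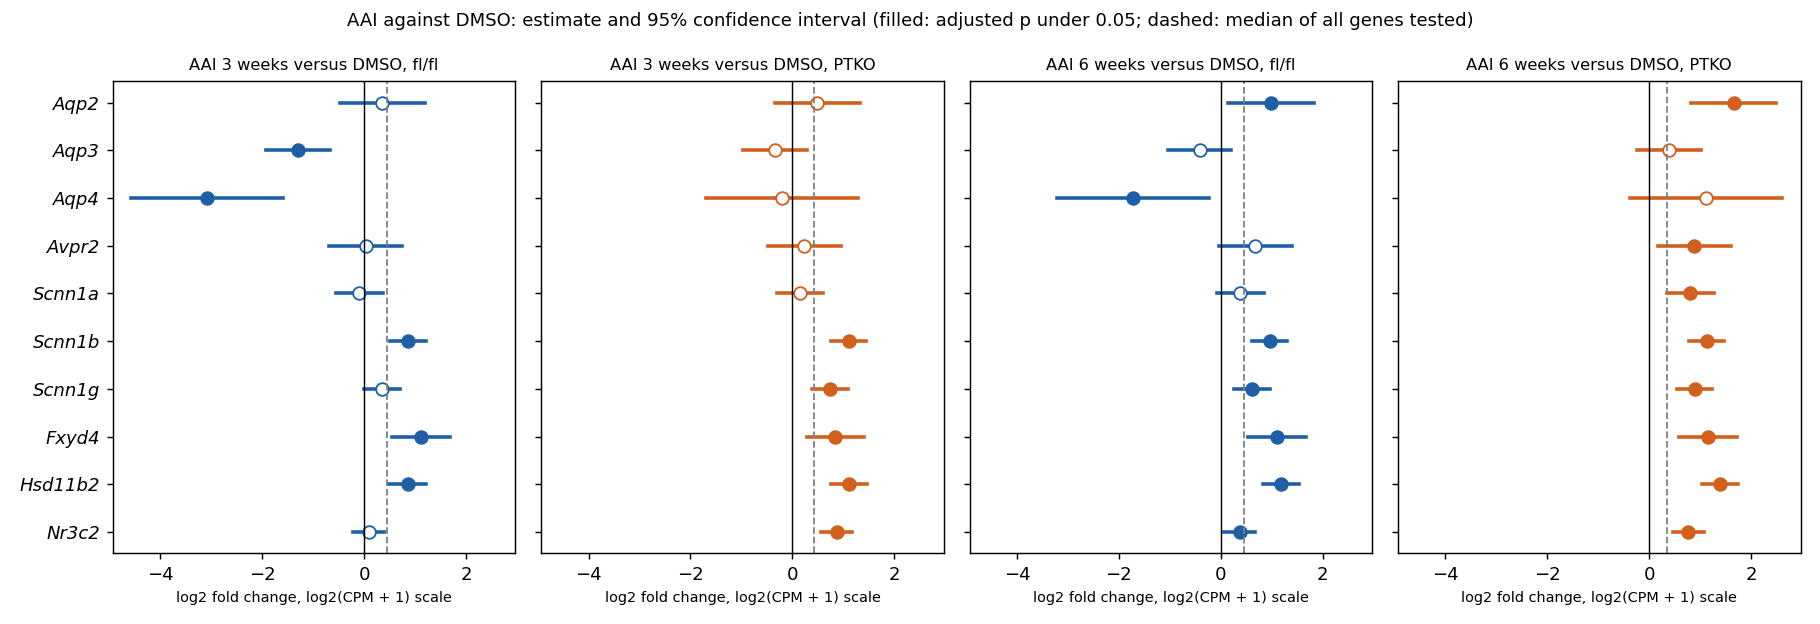
Log2 fold changes of the 10 genes with AAI against DMSO on the log2(CPM + 1) scale (x axis), with 95% confidence intervals from limma, for fl/fl (blue) and libraries labelled PTKO (orange) at 3 and 6 weeks. Filled points passed an adjusted p of 0.05, the dashed line is the median over all genes tested, and Scnn1b, Hsd11b2 and Fxyd4 are filled in all 4 panels.

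Per kilobase of the longest principal transcript, a scale on which levels can be set side by side between genes, Hsd11b2 led under DMSO in fl/fl at 91.1 CPM per kb. Aqp2 (69.4), Scnn1a (67.1) and Aqp3 (65.5) followed, then Scnn1b (26.6), Scnn1g (19.5), Aqp4 (10.7), Fxyd4 (8.89), Avpr2 (6.03) and Nr3c2 (2.65). The place of Fxyd4 depended on the transcript: its principal transcripts run from 550 to 1199 bases, and on the shortest it was at 19.4 CPM per kb, above Aqp4. In the 6-week libraries labelled PTKO, Aqp2 was first at 294 CPM per kb and Hsd11b2 at 226. The group mean was highest in these 6-week PTKO libraries for 8 of the 10 genes, against 11.2% of all genes tested, but replicate 3 carried this count. Without it the mean was highest there for Aqp2 and Fxyd4 only (7.67% of all genes), and in 6-week fl/fl for Scnn1a, Scnn1b, Scnn1g, Avpr2 and Hsd11b2. When each gene's 6 groups were put in order of their mean, libraries of neighbouring groups did not overlap in 8 of 50 neighbouring pairs, against 21.9% of such pairs over all genes tested. An exact permutation test of 3 against 3 libraries cannot go below a two-sided p of 0.1, so that test could not separate any neighbours. The limma test called some of these pairs, such as fl/fl DMSO and 3-week fl/fl for Scnn1b and Hsd11b2.

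**Figure D2:**
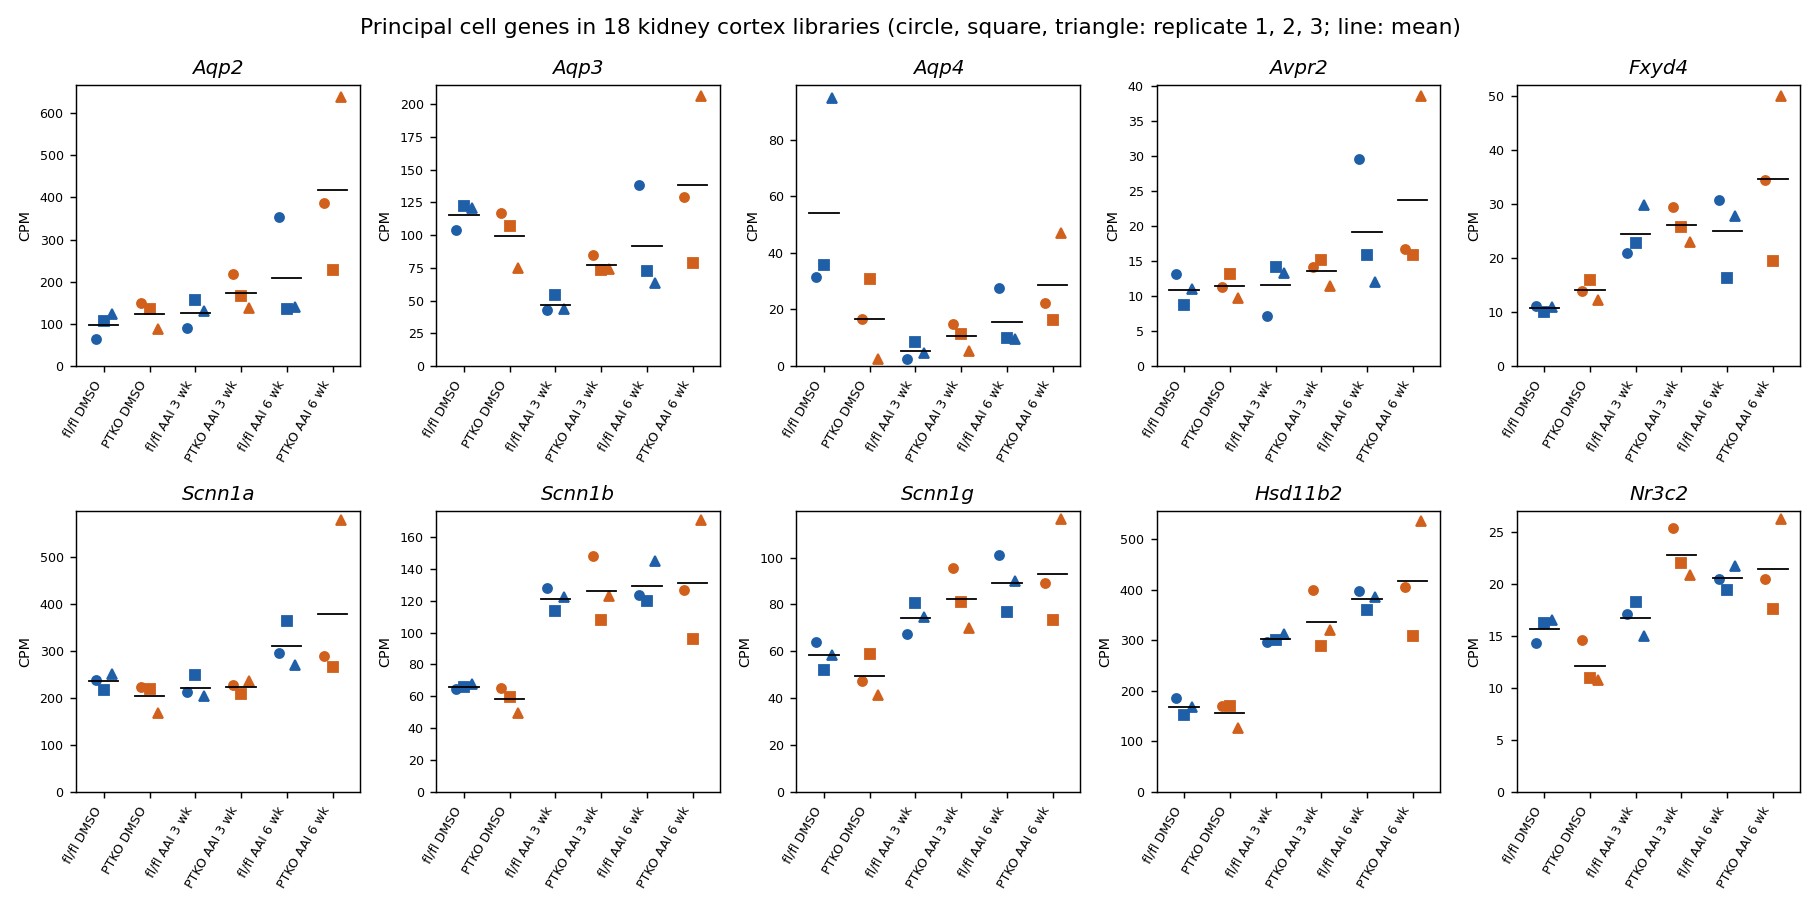
CPM of each gene (y axis, from 0) in the 18 libraries by group, with fl/fl in blue, libraries labelled PTKO in orange, replicates 1 to 3 as circle, square and triangle, and the mean as a line. Replicate 3 of the 6-week PTKO group is the highest of its group for all 10 genes.

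Aqp2, the vasopressin-regulated luminal water channel, was at 64.7, 107 and 124 CPM (fl/fl) and 148, 135 and 87.5 CPM (PTKO) under DMSO. After 3 weeks of AAI, fl/fl libraries were at 89.7, 157 and 129 CPM and PTKO libraries at 217, 165 and 137 CPM. After remodeling, fl/fl libraries were at 353, 135 and 141 CPM and PTKO libraries at 387, 227 and 638 CPM. The 3-week groups overlapped their DMSO groups, and the 6-week groups lay above theirs. At 3 weeks the log2 fold change was 0.36 in fl/fl (95% confidence interval -0.48 to 1.20, limma adjusted p = 0.415) and 0.49 in PTKO (-0.35 to 1.33, adjusted p = 0.276). At 6 weeks Aqp2 rose by 1.66 in libraries labelled PTKO (0.82 to 2.50, limma adjusted p = 0.00186). The 6-week rise in fl/fl was 0.98 (0.14 to 1.82, adjusted p = 0.0343). In fl/fl the call was lost without 6-week replicate 1 (0.53) and without DMSO replicate 1 (0.71). It was not called under median-of-ratios scaling (0.50), quantile normalization (0.87), edgeR (0.59) or DESeq2 (0.60), or with no filter on low genes (0.98). The PTKO rise was called without each library in turn, at 1.29 to 2.03.

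Aqp3, a basolateral channel for water and glycerol, was at 104, 122 and 120.4 CPM (fl/fl) and 116, 107 and 75.0 CPM (PTKO) under DMSO. With AAI for 3 weeks the fl/fl values were 42.6, 54.0 and 43.9 CPM, beside 84.7, 73.1 and 74.4 CPM for PTKO. By 6 weeks the fl/fl values were 139, 72.6 and 63.6 CPM, beside 129, 78.4 and 206 CPM for PTKO. The 3-week fl/fl libraries were the lowest 3 of all 18. Aqp3 fell by 1.29 on the log2 scale in fl/fl at 3 weeks (interval -1.92 to -0.66, limma adjusted p = 0.000879), and by 1.23 to 1.39 without each library in turn. In PTKO at 3 weeks the change was -0.33 (-0.96 to 0.29, adjusted p = 0.319) and with median-of-ratios scaling -0.78, which was called, as it was by edgeR (-0.80) and DESeq2 (-0.81). At 6 weeks limma on CPM did not call Aqp3 in either genotype. The values were -0.41 in fl/fl (limma adjusted p = 0.213) and 0.39 in PTKO (limma adjusted p = 0.26). Median-of-ratios scaling, edgeR and DESeq2 called it lower in fl/fl at 6 weeks. On CPM, single libraries decided both 6-week results. Without fl/fl replicate 1 the fl/fl value was -0.75 and called lower, and without replicate 3 it was -0.20. Without PTKO replicate 2 the PTKO value was 0.74 and called higher, and without replicate 3 it was 0.042.

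Aqp3 and Aqp2 are both water channels of the same cell, and their ratio within a library does not depend on scaling. Under DMSO the Aqp3 to Aqp2 ratio of CPM was 0.974 to 1.6 in fl/fl and 0.785 to 0.857 in PTKO. In the AAI libraries of both genotypes and times it was 0.323 to 0.542. No AAI library overlapped a DMSO library. This ratio was chosen after the values had been seen and is a description with no test. The ratio was even in the 6-week libraries labelled PTKO, at 0.323 to 0.346, although Aqp2 in those libraries spanned 227 to 638 CPM.

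**Figure D3:**
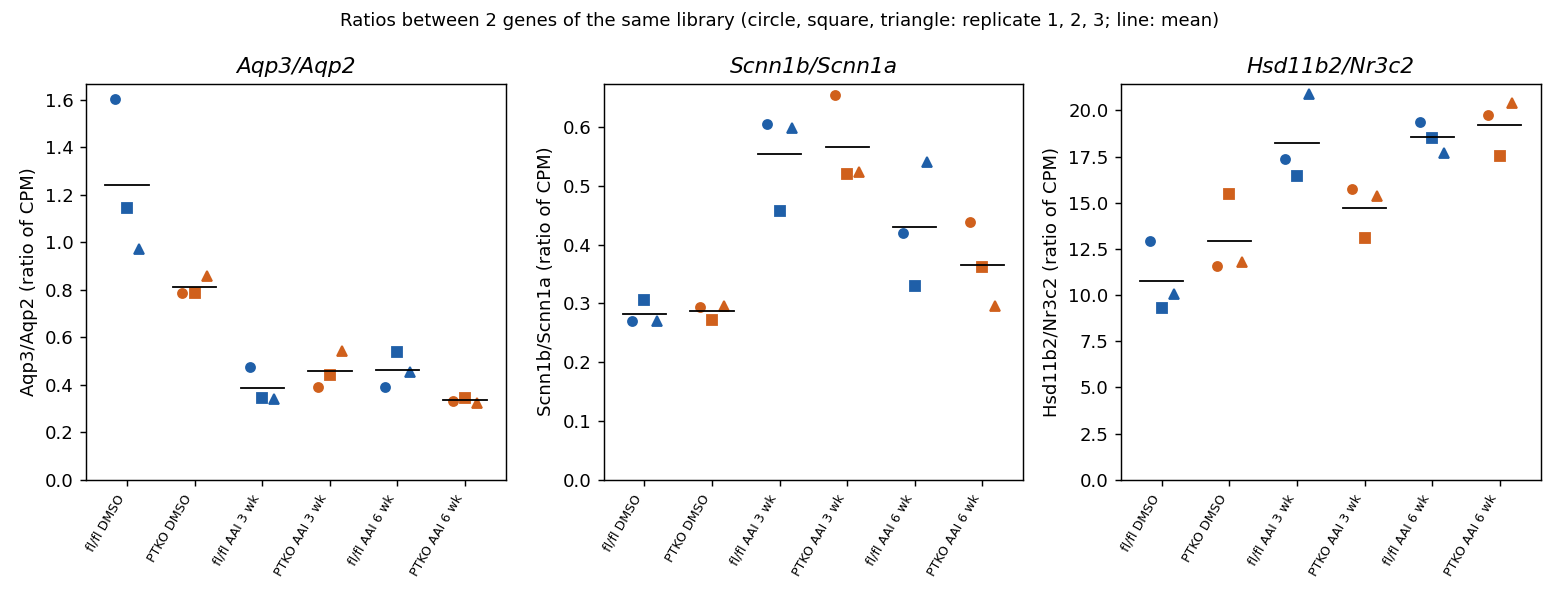
Ratios of CPM between 2 genes of the same library (y axes, from 0) by group, with fl/fl in blue, libraries labelled PTKO in orange and the mean as a line. The Aqp3 to Aqp2 ratio lies at 0.323 to 0.542 in all AAI libraries and at 0.785 or more in all DMSO libraries.

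Aqp4 (chr18:15389496-15410982, minus strand), the other basolateral water channel, ranged from 2.37 to 94.7 CPM over the 18 libraries. The fl/fl DMSO libraries were at 31.5, 35.7 and 94.7 CPM, and the PTKO ones at 16.6, 30.8 and 2.37 CPM, where the lowest value rests on 44 reads. The 3-week libraries of fl/fl held 2.46, 8.63 and 4.71 CPM, and those of PTKO 14.8, 11.4 and 5.23 CPM. The 6-week libraries of fl/fl held 27.5, 9.72 and 9.43 CPM, and those of PTKO 22.3, 16.3 and 47.0 CPM. Both fl/fl AAI groups lay below the fl/fl DMSO group, and the PTKO groups overlapped. Aqp4 fell by 3.08 in fl/fl at 3 weeks (interval -4.57 to -1.58, limma adjusted p = 0.000878) and by 1.72 at 6 weeks (-3.21 to -0.23, adjusted p = 0.0368). The 6-week call was lost without fl/fl DMSO replicate 3 (-1.23), 6-week replicate 2 (-1.49) or 6-week replicate 3 (-1.47). In PTKO the values were -0.21 at 3 weeks (-1.70 to 1.28) and 1.12 at 6 weeks (-0.37 to 2.61), neither called. Without DMSO PTKO replicate 2 they were 0.47, not called, and 1.80, called higher, and without DMSO PTKO replicate 3 the 6-week value was 0.18. In mice Aqp4 is also known from the straight part (S3) of the proximal tubule. Of 6 S3 markers 5 fell in fl/fl at 3 weeks (18.2% of all genes) and 2 at 6 weeks (13.9%). Their summed level was 2267 to 2495 CPM in fl/fl DMSO libraries, 62.7 to 156 CPM at 3 weeks and 340.3 to 1415 CPM at 6 weeks. In PTKO it was 1903 to 2473, 244 to 556 and 253 to 1174 CPM, and no S3 marker was at 0 in any library. The part of S3 cells in the Aqp4 result was not tested.

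Avpr2, the vasopressin receptor of the pathway, was low, at 155 to 754 reads per library. Its levels were 13.1, 8.64 and 11 CPM (fl/fl) and 11.3, 13.1 and 9.75 CPM (PTKO) under DMSO. After 3 weeks of AAI, fl/fl libraries were at 7.09, 14.2 and 13.3 CPM and PTKO libraries at 14.2, 15.1 and 11.5 CPM. After remodeling, fl/fl libraries were at 29.6, 15.8 and 12 CPM and PTKO libraries at 16.7, 15.8 and 38.6 CPM. Most libraries lay between 7.09 and 16.7 CPM, and 1 library of each 6-week group stood well above. Avpr2 was called in 1 comparison, with a rise of 0.89 in PTKO at 6 weeks (interval 0.17 to 1.6, limma adjusted p = 0.0299). Without 6-week PTKO replicate 3 it was 0.49 and no longer called. The call was also lost without DMSO PTKO replicate 1 (0.89) or replicate 3 (0.79), under median-of-ratios scaling (0.52), quantile normalization (0.30), edgeR (0.68) and DESeq2 (0.65), and with no filter on low genes (0.89).

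The 3 ENaC subunits moved by different amounts. Scnn1a, the alpha subunit, was at 238, 216 and 251 CPM (fl/fl) and 222, 219 and 168 CPM (PTKO) under DMSO. The 3-week fl/fl libraries were at 211, 247 and 204 CPM and the PTKO ones at 227, 208 and 235 CPM, which overlapped DMSO. After remodeling, fl/fl libraries reached 295, 363 and 269 CPM and PTKO libraries 289, 265 and 577 CPM, above the DMSO libraries. Scnn1a was called only in PTKO at 6 weeks, with a rise of 0.81 (interval 0.35 to 1.27, limma adjusted p = 0.00385) that median-of-ratios scaling (0.42) and edgeR (0.52) did not call. Without 6-week PTKO replicate 3 the rise was 0.46, still called. In fl/fl it was -0.09 at 3 weeks (adjusted p = 0.712), where median-of-ratios scaling called it lower at -0.56, and 0.39 at 6 weeks (adjusted p = 0.116).

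Scnn1b, the beta subunit, was at 64.3, 66.0 and 67.6 CPM (fl/fl) and 65.1, 59.5 and 49.6 CPM (PTKO) under DMSO. With AAI for 3 weeks the fl/fl values were 128, 113 and 122 CPM, beside 148, 108 and 123 CPM for PTKO. By 6 weeks the fl/fl values were 124, 119.7 and 145 CPM, beside 127, 96.0 and 171 CPM for PTKO. Every AAI library lay above every DMSO library. The rises in fl/fl were 0.87 at 3 weeks (interval 0.52 to 1.21, limma adjusted p = 0.000165) and 0.96 at 6 weeks (0.61 to 1.30, adjusted p = 7.63e-05). In libraries labelled PTKO they were 1.11 (0.76 to 1.45, adjusted p = 2.04e-05) and 1.13 (0.78 to 1.48, adjusted p = 2.59e-05). Without each library in turn the 4 rises ran from 0.83 to 1.34 and all were called. With median-of-ratios scaling they were 0.40, 0.48, 0.66 and 0.74 in the same order.

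Scnn1g, the gamma subunit, was at 64.1, 52.1 and 58.4 CPM (fl/fl) and 47.4, 58.8 and 41.4 CPM (PTKO) under DMSO. The 3-week libraries of fl/fl held 67.5, 80.7 and 74.5 CPM, and those of PTKO 95.7, 81.0 and 69.8 CPM. The 6-week libraries of fl/fl held 101, 76.9 and 90.0 CPM, and those of PTKO 89.1, 73.2 and 116 CPM. No AAI group overlapped its DMSO group. It rose by 0.73 and 0.89 in PTKO at 3 and 6 weeks (limma adjusted p = 0.000996 and 0.000259) and by 0.61 in fl/fl at 6 weeks (adjusted p = 0.00386), and its 3-week value in fl/fl was 0.35 (adjusted p = 0.0678). Median-of-ratios scaling called it only in PTKO at 6 weeks (0.50). Within a library, the Scnn1b to Scnn1a ratio of CPM was 0.270 to 0.305 under DMSO, 0.458 to 0.655 at 3 weeks and 0.295 to 0.541 at 6 weeks. The 3-week libraries lay above all DMSO libraries and the 6-week libraries overlapped both. This ratio too was chosen after the values had been seen.

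Fxyd4 was at 11.1, 9.96 and 10.9 CPM (fl/fl) and 13.9, 16.0 and 12.2 CPM (PTKO) under DMSO. After 3 weeks of AAI, fl/fl libraries were at 20.9, 22.8 and 29.8 CPM and PTKO libraries at 29.4, 25.8 and 22.9 CPM. After remodeling, fl/fl libraries were at 30.8, 16.2 and 27.8 CPM and PTKO libraries at 34.5, 19.5 and 50.1 CPM. Each AAI group lay above its own DMSO group. Fxyd4 rose by 1.11 in fl/fl at both times (limma adjusted p = 0.00133 and 0.00154) and by 0.85 and 1.16 in PTKO (adjusted p = 0.0101 and 0.00147). Quantile normalization called it only in PTKO at 6 weeks (0.65). Median-of-ratios scaling lost the 3-week PTKO call (0.42), as did edgeR (0.45) and DESeq2 (0.44).

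Hsd11b2, which shields the mineralocorticoid receptor, was at 185, 151 and 167 CPM (fl/fl) and 169, 169 and 127 CPM (PTKO) under DMSO. With AAI for 3 weeks the fl/fl values were 297, 299.6 and 312 CPM, beside 399.6, 288 and 320.4 CPM for PTKO. By 6 weeks the fl/fl values were 397, 360.5 and 385 CPM, beside 406, 308 and 536 CPM for PTKO. Every AAI library lay above every DMSO library. In fl/fl it rose by 0.85 at 3 weeks (interval 0.50 to 1.21, limma adjusted p = 0.000227) and 1.18 at 6 weeks (0.83 to 1.54, adjusted p = 1.20e-05). In libraries labelled PTKO it rose by 1.11 (0.76 to 1.47, adjusted p = 2.40e-05) and 1.40 (1.04 to 1.75, adjusted p = 4.19e-06). It was called without each library in turn, at 0.78 to 1.6. With median-of-ratios scaling the rises were 0.39, 0.70, 0.66 and 1.0 in the same order, all called.

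Nr3c2, the mineralocorticoid receptor, was at 14.3, 16.3 and 16.5 CPM (fl/fl) and 14.6, 10.9 and 10.7 CPM (PTKO) under DMSO. At 3 weeks it was at 17.1, 18.2 and 15 CPM in fl/fl, which overlapped DMSO, and 25.4, 22.0 and 20.9 CPM in PTKO, which did not. The 6-week libraries of fl/fl held 20.5, 19.4 and 21.7 CPM, and those of PTKO 20.5, 17.6 and 26.3 CPM. In libraries labelled PTKO it rose by 0.87 at 3 weeks (interval 0.56 to 1.17, limma adjusted p = 5.90e-05) and 0.77 at 6 weeks (0.47 to 1.08, adjusted p = 0.000249), and only quantile normalization lost these calls (0.23 and 0.22). In fl/fl the direction depended on the scaling. On CPM the 3-week value was 0.09 (adjusted p = 0.587) and the 6-week value 0.37 (adjusted p = 0.0288, lost without DMSO replicate 1 and without 6-week replicate 1 or 3). With median-of-ratios scaling they were -0.35, called lower, and -0.09, not called. The Hsd11b2 to Nr3c2 ratio of CPM, also chosen after the values had been seen, was 9.30 to 15.5 under DMSO, 16.4 to 20.9 in fl/fl AAI libraries, 13.1 to 15.7 in PTKO at 3 weeks and 17.6 to 20.4 in PTKO at 6 weeks.

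From 3 to 6 weeks none of the 10 genes passed in either genotype (limma), where 13.2% of all genes tested passed in fl/fl and 11.2% in PTKO. At an unadjusted p under 0.05 the counts were 2 in fl/fl and 3 in PTKO. The share of all genes at that unadjusted threshold is not given, so these counts are no result about the members. The edgeR calls were 1 and 2 (11.8% and 8.76% of all genes), and those of DESeq2 1 and 3 (17% and 14.8%). In fl/fl the gene that edgeR and DESeq2 called was Aqp3, which went from 42.6 to 54.0 CPM at 3 weeks to 63.6 to 139 CPM at 6 weeks (0.87, interval 0.25 to 1.5, limma adjusted p = 0.0608). Quantile normalization called it too (0.94, beside 16.5% of all genes). In PTKO edgeR called Aqp2 and Scnn1a, and DESeq2 also Aqp3. The limma values in PTKO were 1.17 for Aqp2 (0.33 to 2.01, adjusted p = 0.0683) and 0.67 for Scnn1a (0.21 to 1.12, adjusted p = 0.0561), and median-of-ratios scaling called Scnn1a (0.72, beside 9.51% of all genes). Without 6-week PTKO replicate 2, the library with the most Adipoq, limma called Aqp2 (1.54), Aqp3 (1.07) and Scnn1a (0.87). Without 6-week PTKO replicate 3, Aqp2 was 0.80 and Scnn1a 0.31, neither called. In fl/fl, Aqp3 was 1.09 and called without 6-week replicate 3, and 0.54 and not called without 6-week replicate 1.

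Between the genotypes none of the 10 genes passed under DMSO, at 3 weeks or at 6 weeks (limma), against 0.288%, 14.2% and 15.1% of all genes tested. The counts at an unadjusted p under 0.05 were 2, 2 and 1. No share of all genes at that unadjusted threshold is given, so these counts are no result about the members. The edgeR calls were 0, 1 and 0 (0.226%, 13.4% and 10.3% of all genes), and those of DESeq2 0, 2 and 1 (0.774%, 18.5% and 15.9%). The nearest at 3 weeks were Nr3c2 and Aqp3, whose PTKO libraries all lay above the fl/fl libraries. Of all genes tested, 33.7% did not overlap there. Nr3c2 was 0.42 higher in PTKO (interval 0.12 to 0.72, limma adjusted p = 0.0617), and median-of-ratios scaling (0.46, beside 13.4% of all genes), quantile normalization (0.54, beside 16%), edgeR (0.51) and DESeq2 (0.48) called it. Aqp3 was 0.72 higher (0.09 to 1.34, adjusted p = 0.113), called by DESeq2 (0.77) and by a fit on these groups alone (0.72). At 6 weeks Aqp2 was 1.02 higher in PTKO (0.18 to 1.86, adjusted p = 0.0909), with 387, 227 and 638 CPM against 353, 135 and 141, and the groups overlapped. DESeq2 called it (1.11), and so did limma without 6-week fl/fl replicate 1 (1.47), while without 6-week PTKO replicate 3 the value was 0.65 and not called. Without 6-week PTKO replicate 2, limma called Aqp2 (1.39), Aqp3 (0.91) and Fxyd4 (0.76) higher in PTKO. Under DMSO, Aqp4 had the widest difference, 1.97 lower in PTKO (-3.47 to -0.48), with a limma adjusted p of 0.49, and without DMSO PTKO replicate 3 it was -1.04.

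The AAI response itself was compared between genotypes as an interaction. None of the 10 genes passed at 3 or 6 weeks (limma), against 0.281% and 0.0685% of all genes tested. At an unadjusted p under 0.05 there were 3 and 1, again with no share of all genes at that threshold given. The edgeR fit called 0 at both times (0.123% and 0.00685% of all genes), and DESeq2 called 1 and 0 (3.82% and 0.582%). Aqp4 had the largest interaction, 2.87 at 3 weeks (interval 0.76 to 4.98, limma adjusted p = 0.143) and 2.84 at 6 weeks (0.73 to 4.95, adjusted p = 0.242). Nr3c2 had 0.78 at 3 weeks (0.35 to 1.21, adjusted p = 0.0745), and DESeq2 called it at 0.83. Aqp3 had 0.95 at 3 weeks (0.07 to 1.84, adjusted p = 0.236). A fit on the 4 groups concerned alone called Nr3c2 and Aqp3.

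Within some groups most of the 10 genes ranked the libraries alike. In the 6-week PTKO group replicate 3 was the highest library and replicate 2 the lowest for 10 of 10 genes, and in the DMSO PTKO group replicate 3 was the lowest for 10 of 10. Replicate 1 was the highest for 7 genes in 6-week fl/fl and for 8 in 3-week PTKO. The fl/fl DMSO group was split, with replicate 1 the highest for 4 genes and the lowest for 5. Over the 18 libraries, deviations from the group means on the log2 scale correlated above 0 in 45 of 45 pairs of genes, from r = 0.29 for Scnn1b and Avpr2 to r = 0.93 for Aqp2 and Aqp3. These pairs share libraries, depth and dissection, no share over pairs of all genes was computed, and no test is given.

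Some markers of neighbouring segments and cells varied with them. Slc12a1 was at 1689.7, 972 and 598 CPM in 6-week fl/fl and 1197, 798 and 3344 CPM in 6-week PTKO, so that its highest libraries were those with the highest Aqp2. The intercalated cell marker Slc26a4 was at 40.5, 69.0 and 43.4 CPM in 6-week fl/fl, lowest where Aqp2 was highest. In 6-week PTKO it was at 53.6, 34.5 and 59.1 CPM. The summed level of 9 thick ascending limb markers was 6365 to 10102 CPM in fl/fl and 5380.1 to 7981 CPM in PTKO under DMSO. At 3 weeks it was 2071 to 3898 and 3784 to 6113 CPM, and at 6 weeks 4081 to 8840.0 and 6606 to 15127 CPM. Slc14a2 was at 0, 26.9 and 20.5 CPM (fl/fl) and 2.40, 11.6 and 0.646 CPM (PTKO) under DMSO, where the 0 allows a level of up to 0.182 CPM (3 reads, counting error only). The 3-week libraries of fl/fl held 4.67, 21.1 and 10.5 CPM, and those of PTKO 17.9, 25.9 and 5.35 CPM. At 6 weeks it was at 137, 38.5 and 23.6 CPM and at 50.7, 23.6 and 211 CPM. The library with the most Slc14a2 was also the one with the most Aqp2 in 3 of 6 groups, and the libraries with the least matched in 5 of 6. The summed level of 7 thin limb and inner medulla markers was 47.8 to 155 CPM over the DMSO libraries and 368 to 746 CPM over the AAI libraries. At 3 weeks this sum was 374 to 429 CPM in fl/fl and 422 to 614 CPM in PTKO. Slc14a2 was at 25.9 CPM or less in those 3-week libraries. Cryab had the highest mean level of the 7 genes, and its part in the sum was not tested. Up to 2 of the 7 were at 0 in a DMSO library. The part that medullary tissue in the samples plays in the levels of Aqp2 and the other genes was not tested.

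**Figure D4:**
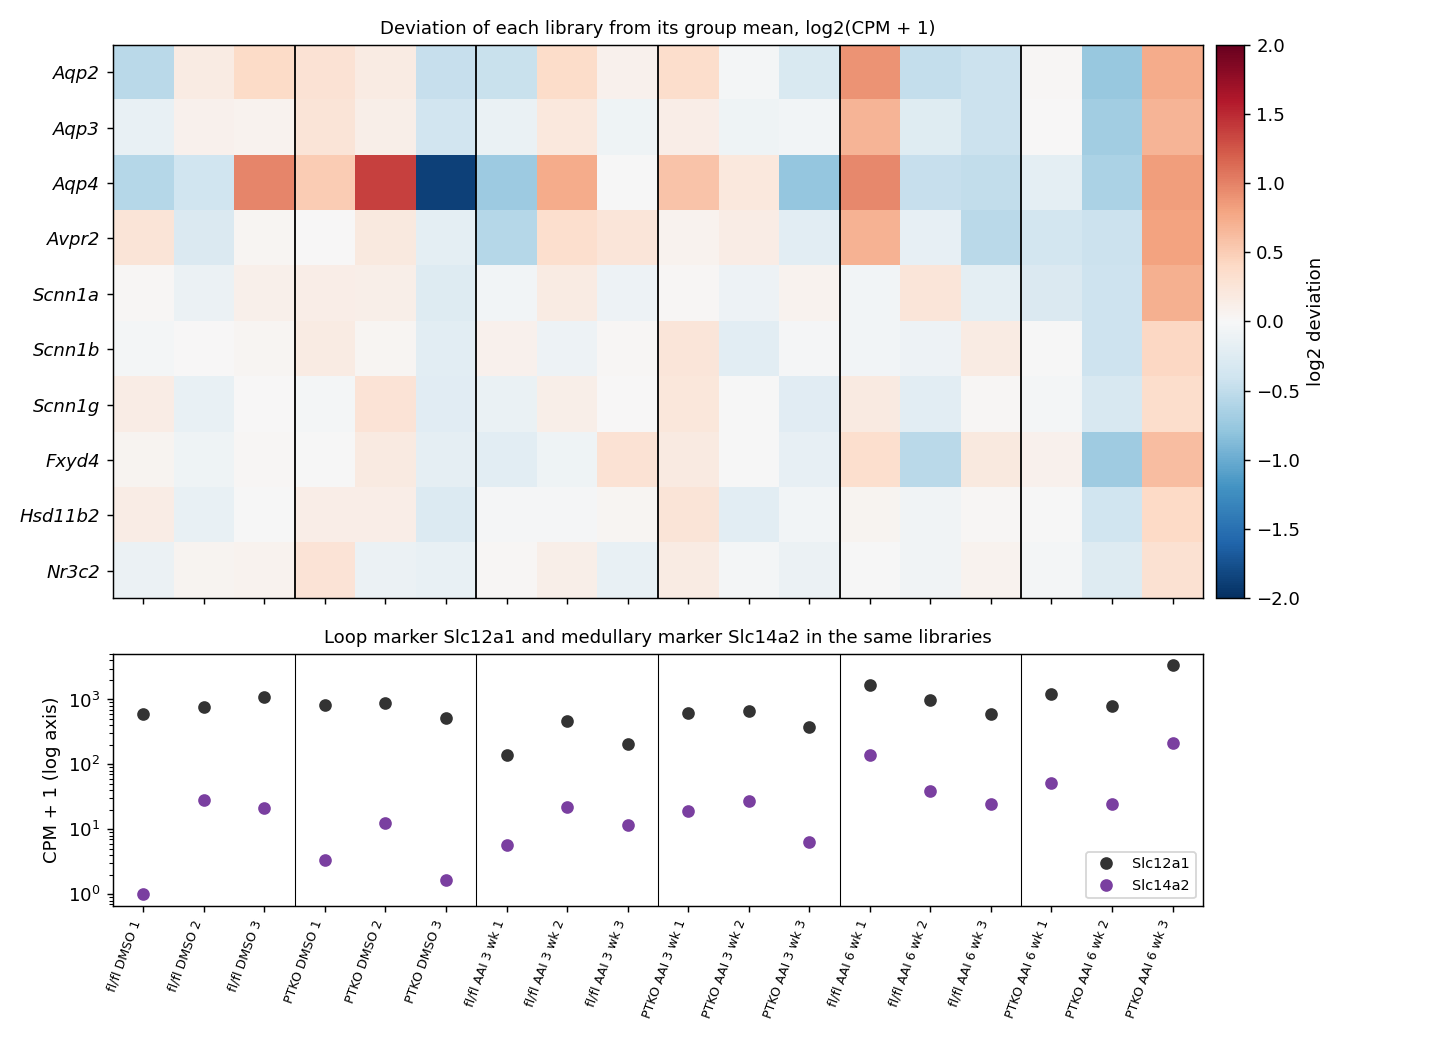
Upper panel: deviation of each library (columns) from its group mean for each gene (rows), on the log2(CPM + 1) scale, red above and blue below. Lower panel: CPM + 1 of Slc12a1 and Slc14a2 on a log axis in the same libraries. The columns of 6-week fl/fl replicate 1 and 6-week PTKO replicate 3 are mostly red, and both markers peak there.

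Without those libraries (6-week fl/fl replicate 1 and 6-week PTKO replicate 3), 8 members were called in fl/fl and 7 in PTKO at 6 weeks, beside 69.3% and 58.6% of all genes tested. The rises of Scnn1b were then 0.99 and 0.92, and those of Hsd11b2 1.15 and 1.20. Aqp2 was 0.53 in fl/fl, not called, and 1.29 in PTKO, called. Without the libraries with the most Adipoq (DMSO and 6-week PTKO replicate 2), all 10 genes were called higher in PTKO at 6 weeks, beside 47.9% of all genes tested, with Aqp4 and Aqp2 each at 2.12. These exclusions were chosen after the data had been seen.

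Other genes of principal cells and of the collecting duct were counted next. Of 12 such genes, 7 rose and 2 fell in fl/fl at 3 weeks, the shares found over all genes (58% and 18.2%), and 10 rose at 6 weeks (59.8% of all genes). In PTKO 9 rose at 3 weeks (57.2% of all genes) and 11 at 6 weeks (53.7%). None of the 12 was lower in those 3 comparisons. The medians were 0.63, 1.08, 0.83 and 1.01, and with median-of-ratios scaling 0.28, 0.64, 0.39 and 0.63, with 5, 7, 5 and 9 genes higher and 2, 1, 1 and 0 lower. Gata3, a transcription factor of the collecting duct, rose from 15.1 ± 0.506 to 35.7 ± 4.82 CPM (SD, n = 3) in fl/fl at 6 weeks and from 13.2 ± 1.75 to 37.5 ± 3.86 CPM in PTKO. Kcne1, a potassium channel subunit, rose from 27.0 ± 3.51 to 71.6 ± 5.07 CPM in fl/fl at 3 weeks. St6gal1, a sialyltransferase, rose from 22.3 ± 2.25 to 127 ± 16.3 CPM in the same comparison.

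Intercalated cell genes, the other cell type of the duct, gave mixed counts. Of 14 genes 4 rose and 4 fell in fl/fl at 3 weeks (58% and 18.2% of all genes). At 6 weeks 7 rose and 2 fell (59.8% and 13.9%). In PTKO 5 rose and none fell at 3 weeks (57.2% and 13.9%), and 8 rose and 2 fell at 6 weeks (53.7% and 11.4%). Their summed level was 746 to 827 CPM in fl/fl DMSO libraries and 727 to 831 CPM at 3 weeks, so these groups overlapped. At 6 weeks it was 954 to 1094 CPM. Foxi1, the transcription factor of these cells, rose from 48.7 ± 1.36 to 86.0 ± 4.52 CPM in fl/fl at 6 weeks. The medians were -0.11, 0.39, 0.25 and 0.52. With median-of-ratios scaling, 2 rose and 7 fell in fl/fl at 3 weeks, 3 and 4 in fl/fl at 6 weeks and in PTKO at 3 weeks, and 5 and 2 in PTKO at 6 weeks.

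Genes of vasopressin and cyclic AMP signalling depended on the scaling. Of 13 genes 8 rose and 2 fell in fl/fl at 3 weeks on CPM (58% and 18.2% of all genes). With median-of-ratios scaling 2 rose and 7 fell (36.7% and 34.2%). The CPM counts were 9 and 2 in fl/fl at 6 weeks (59.8% and 13.9%). In PTKO they were 8 and 1 (57.2% and 13.9%), then 9 and 1 (53.7% and 11.4%). The 4 medians were 0.30, 0.34, 0.31 and 0.33. Median-of-ratios scaling gave 3 and 4 in fl/fl at 6 weeks (34.1% and 32.5%). In PTKO it gave 3 and 3 (32.9% and 31.3%), then 4 and 2 (28.7% and 28.9%). Pde3b, a phosphodiesterase that breaks down cyclic AMP, rose from 16.6 ± 1.40 to 39.3 ± 5.73 CPM in fl/fl at 3 weeks, and Adcy3, an adenylyl cyclase, from 2.74 ± 1.23 to 13.3 ± 2.46 CPM. Myo5b, a motor of Aqp2 vesicles, fell from 253 ± 16.9 to 157 ± 20.9 CPM. Prostaglandin, endothelin, nucleotide and calcium-sensing signals are other inputs to the principal cell. Of 10 such genes 7 rose in each of fl/fl at 3 weeks (58% of all genes), fl/fl at 6 weeks (59.8%) and PTKO at 3 weeks (57.2%), and 8 in PTKO at 6 weeks (53.7%), with medians of 1.36, 1.22, 1.17 and 1.19. With median-of-ratios scaling 7 rose in each. Edn1 (endothelin 1) rose from 1.52 ± 0.307 to 25.1 ± 1.25 CPM in fl/fl at 3 weeks, and Ptger4 (the prostaglandin E receptor EP4) from 4.70 ± 0.274 to 47.3 ± 8.98 CPM. Beside these, 6 of 6 macrophage markers rose in fl/fl at 3 weeks, from a summed 114 to 159.6 CPM under DMSO to 4552 to 7697 CPM. All 7 fibroblast markers rose too, from a summed 139 to 324 CPM to 3243 to 4267 CPM, and no marker of either list was at 0. Their part in the Edn1 and Ptger4 levels was not tested.

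Regulators of ENaC changed in both directions. Of 13 genes for its ubiquitination, proteolysis and kinases, 5 rose and 4 fell in fl/fl at 3 weeks, 7 and 3 at 6 weeks, 6 and 3 in PTKO at 3 weeks, and 9 and 2 at 6 weeks. For this list and the next, the shares of all genes were 58% and 18.2%, 59.8% and 13.9%, 57.2% and 13.9%, and 53.7% and 11.4%. The medians of the ENaC list were 0.16, 0.37, 0.34 and 0.39. With median-of-ratios scaling the counts were 2 and 7, 3 and 6, 4 and 4, and 4 and 3. St14, the protease matriptase, rose from 58.6 ± 4.71 to 198 ± 15.2 CPM in fl/fl at 3 weeks. Prss8, the channel-activating protease prostasin, fell from 582 ± 19.6 to 208 ± 15.9 CPM. Usp2, a deubiquitinase under circadian and aldosterone control, fell from 200.2 ± 8.67 to 81.2 ± 5.38 CPM. Targets of the mineralocorticoid and glucocorticoid receptors did not move one way: of 12 genes 4 rose and 4 fell, 3 and 3, 3 and 4, and 6 and 2 in the same order (medians 0.42, -0.04, 0.05 and 0.50). With median-of-ratios scaling they were 3 and 5, 2 and 5, 2 and 6, and 4 and 3. Cnksr3, a scaffold for ENaC regulators, rose from 21.9 ± 2.17 to 48.7 ± 5.36 CPM in fl/fl at 3 weeks, and Ndrg2 fell from 162 ± 28.8 to 46.2 ± 5.90 CPM. Sgk1, the aldosterone-induced kinase, rose from 63.7 ± 14.2 to 143 ± 37.6 CPM in PTKO at 6 weeks.

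The relatives of the members gave different patterns. Hsd11b1, which regenerates active glucocorticoid and is thus opposite in action to Hsd11b2, fell from 198 ± 66.9 to 51.1 ± 6.55 CPM in fl/fl at 3 weeks and from 185 ± 49.4 to 47.6 ± 13.5 CPM in PTKO at 6 weeks. Of 5 genes for other steroid receptors and steroid dehydrogenases 1 rose and 3 fell in fl/fl at 3 weeks (58% and 18.2% of all genes). At 6 weeks 4 fell (13.9%). In PTKO 1 rose and 2 fell at 3 weeks (57.2% and 13.9%) and 4 fell at 6 weeks (11.4%). The medians were -0.99, -0.79, -0.64 and -0.37, and with median-of-ratios scaling none rose and 4, 5, 4 and 5 fell. Among FXYD subunits and sodium pump genes, 5 of 8 rose in fl/fl at both times (58% and 59.8% of all genes). In PTKO 4 rose at 3 weeks (57.2%) and 6 at 6 weeks (53.7%). The medians were 0.80, 0.87, 0.47 and 0.81. With median-of-ratios scaling 5, 5, 3 and 5 rose. Their summed level was lower in fl/fl at 3 weeks, at 7226 to 8477 CPM, against 10241 to 10382.5 CPM under DMSO. At 6 weeks it was 8986 to 10676 CPM, which overlapped DMSO. In PTKO it was 9019 to 10430.5 CPM under DMSO, 9330 to 11804 CPM at 3 weeks and 10087.5 to 16585 CPM at 6 weeks. Fxyd5 (dysadherin) rose from 16.0 ± 1.5 to 214 ± 53.1 CPM in fl/fl at 3 weeks. Of the 7 other aquaporins 5 could be tested, of which 2 rose in each comparison and 3, 1, 2 and 1 fell. Over all genes, 58%, 59.8%, 57.2% and 53.7% rose and 18.2%, 13.9%, 13.9% and 11.4% fell. The aquaporin medians were -0.88, -0.15, 0.03 and 0.15. Aqp11 fell from 56.0 ± 3.02 to 7.06 ± 0.796 CPM and Aqp1, the water channel of the proximal tubule, from 959.8 ± 111 to 228 ± 133 CPM in fl/fl at 3 weeks. Aqp6, a channel of intercalated cells, rose from 49.3 ± 12.9 to 119 ± 7.33 CPM in PTKO at 3 weeks.

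**Figure D5:**
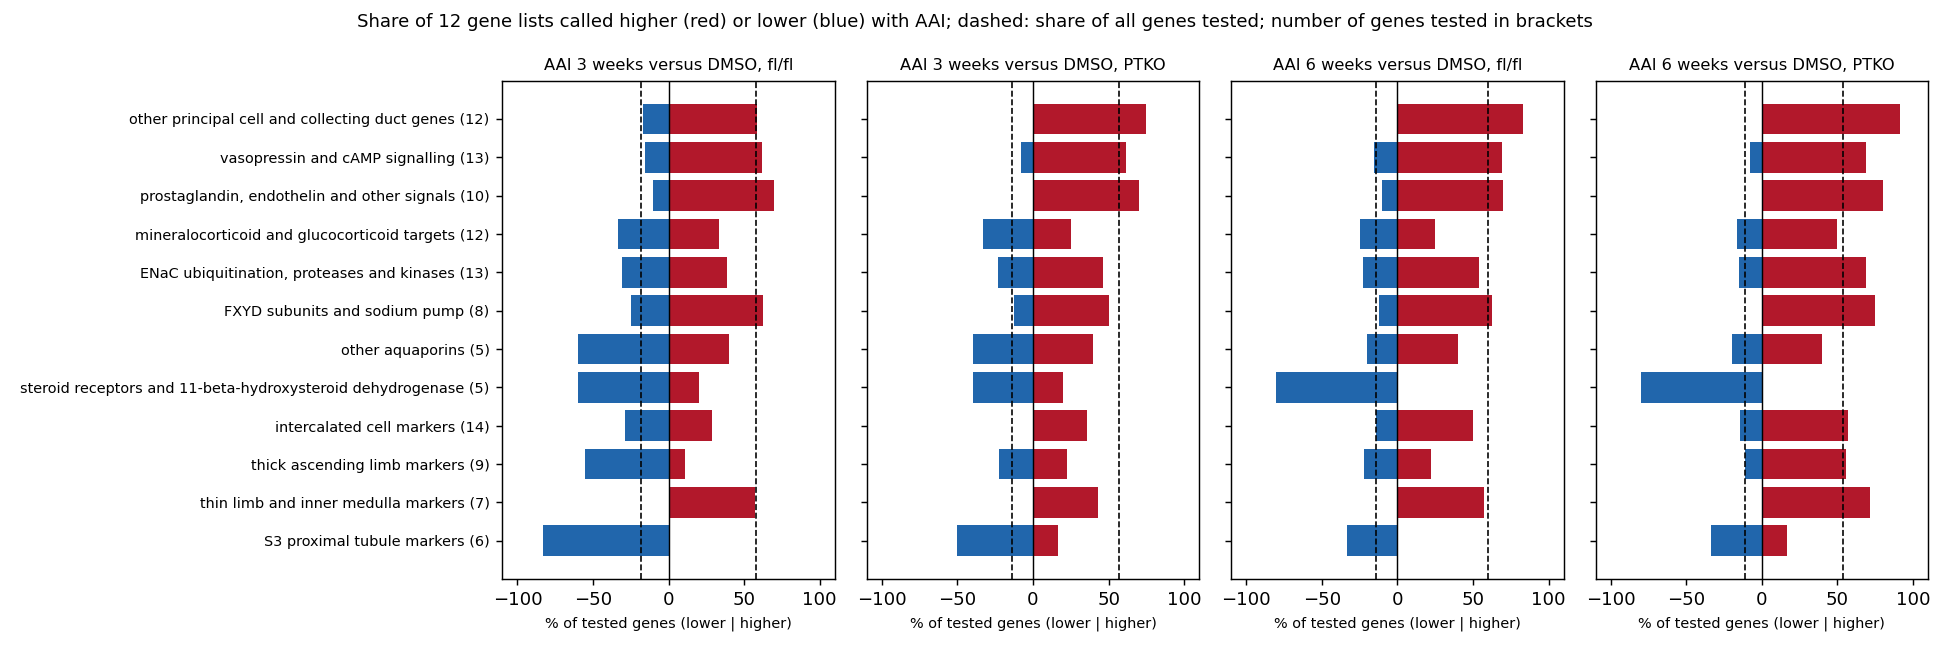
Share of the tested genes called higher (red, right) or lower (blue, left) with AAI against DMSO in 12 lists, in percent, with the number tested in brackets and the shares over all genes tested as dashed lines. Other principal cell genes reach 10 of 12 called higher in fl/fl and 11 of 12 in PTKO at 6 weeks; lists of injured tubule, immune and stromal markers are not plotted.

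The genes most like Aqp2 were sought over the 18 libraries among 11783 candidates with a mean of at least 5 CPM. By log2 level they included Btc (betacellulin, r = 0.94), Mrps6 (r = 0.90), Ptger3 (r = 0.89) and Slc27a4 (r = 0.89). By deviation from the group means, which sets aside the differences between groups, they were Mcoln3 (r = 0.94), Muc20 (r = 0.93), Nccrp1 (r = 0.93), Ckb (r = 0.92) and Egfl6 (r = 0.92). Nccrp1 ranged from 0.162 to 104.9 CPM over the libraries. The points share libraries and depth, and the values are a description with no test.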

How the data were processed

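The deposited table gives CPM made by the authors from total RNA libraries. The tools that the submitters' processing notes name are kallisto and bcl2fastq 2.19, the build is mm10, with their settings not given in the sources used here. All 433116 values came within 0.01 read of a whole number (100%), so reads were recovered. The table holds 27 symbols turned into dates, which stayed unnamed.

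Groups came from the labels. log2(CPM + 1) was fitted with limma 3.58.1 (R 4.3.3) with 6 group means over 18 libraries and a variance trend, for the 14604 genes that reached 1 CPM in 3 or more libraries. Tests are two-sided, with Benjamini-Hochberg adjustment over all genes tested, in 11 comparisons. Fold changes on this scale understate changes of low genes. Alternatives were unfiltered genes, a 5 CPM minimum, 0.1 as pseudocount, quantile normalization, median-of-ratios scaling, the compared groups alone, a replicate block, no trend, edgeR 4.0.16 and DESeq2 1.42.0 on recovered reads, and leaving out each library. Those without 2 libraries were added after the data had been seen.

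The members, gene lists and tests were chosen with earlier results of these data known. All members are named. From each list up to 3 genes with the smallest adjusted p were eligible, and not all are printed or reported here; Slc12a1, Slc14a2 and Adipoq were chosen after their values were seen. Gene positions are from GENCODE M21, which 22683 symbols matched. The fit was also run on simulated data in which few genes changed, evenly in both directions. That run does not speak to the shift of most genes seen here.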

Additional observations from a re-analysis of the deposited data

How the results depend on the processing

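Of the 51 log2 fold changes followed, those of Scnn1b and Hsd11b2 with AAI kept their direction and their call under every alternative run. A pseudocount of 0.1, a filter at 5 CPM and no variance trend changed no direction and no call. The replicate block changed none either. Same-numbered libraries of different groups did not deviate together as a set (r from -0.37 to 0.49, median 0.0082, above 0.1 in 10 of 45 pairs). The median r of the other pairs was 0.0062. With 3 libraries a group, this check cannot exclude that the numbers pair the libraries.

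Scalings that set the median gene near 0 turned several values that were small on CPM. In fl/fl at 3 weeks the values under median-of-ratios scaling, edgeR and DESeq2 were -0.10, -0.14 and -0.12 for Aqp2, -0.11, -0.13 and -0.12 for Scnn1g, -0.40, -0.41 and -0.39 for Avpr2 and -0.35, -0.39 and -0.37 for Nr3c2. Quantile normalization gave -0.75 for Avpr2 and -0.59 for Nr3c2. In fl/fl at 6 weeks the former 3 gave -0.10, -0.078 and -0.078 for Scnn1a and -0.089, -0.10 and -0.095 for Nr3c2, and quantile normalization gave -0.27 for Nr3c2 and -0.049 for Avpr2. In PTKO at 3 weeks they gave -0.31, -0.30 and -0.32 for Scnn1a and -0.18, -0.18 and -0.20 for Avpr2, with -0.47 for Avpr2 under quantile normalization. Aqp3 in PTKO at 6 weeks was -0.0079 under median-of-ratios scaling. Leaving out 1 library gave -0.13 to 0.32 for Avpr2 in fl/fl at 3 weeks and -1.15 to 0.47 for Aqp4 in PTKO at 3 weeks, and without the libraries with adipocyte transcripts the latter was 0.47. The cause was not tested.

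The number of members called was 3 under quantile normalization in fl/fl at 6 weeks and in PTKO at 3 weeks, against 7 and 5. Of all genes tested, quantile normalization called 64.4% and 62.9% there, against 73.7% and 71.1%. From 3 to 6 weeks in fl/fl, 1 was called under quantile normalization, edgeR and DESeq2 (16.5%, 11.8% and 17% of all genes). Without the libraries with high limb markers 1 was called, beside 1237 genes higher and 1223 lower of 14604. With 1 library left out 0 to 1 were called, the 1 being without 6-week replicate 3 (908 genes higher and 858 lower). In PTKO 1 was called under median-of-ratios scaling (9.51% of all genes), 2 under edgeR (8.76%) and 3 under DESeq2 (14.8%). Without the libraries with adipocyte transcripts 3 were called, beside 402 genes higher and 1018 lower. With 1 library left out 0 to 3 were called, the 3 being without 6-week replicate 2 (438 genes higher and 1105 lower). Between genotypes at 3 weeks, 1 was called under median-of-ratios scaling, quantile normalization and edgeR (13.4%, 16% and 13.4% of all genes). DESeq2 called 2 (18.5%). The fit on the groups compared alone called 1, beside 621 genes higher and 790 lower. At 6 weeks 1 was called under DESeq2 (15.9% of all genes). Without the libraries with adipocyte transcripts 3 were called, beside 385 genes higher and 1349 lower. With 1 library left out 0 to 3 were called, the 3 being without 6-week PTKO replicate 2 (431 genes higher and 1484 lower). Without 6-week fl/fl replicate 1, 1 was called (124 genes higher and 317 lower). For the 3-week interaction 2 were called by the fit on the groups compared alone (354 genes higher and 227 lower). DESeq2 called 1 (3.82% of all genes). With 3 libraries a group, a difference that was not called was not detected here, also where its interval excluded 0. That does not show that it is absent.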
